A study of Mus with 10 samples.

Results

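The RNAs of the imprinted Dlk1-Dio3 domain of mouse chromosome 12 were followed in skin after PUVA, a treatment with topical psoralen, which crosslinks DNA when lit, followed by UVA light. Members were all genes that RefSeq places between the start of Dlk1 and the end of Dio3 (assembly GRCm38.p6) and that have a probe set naming no other gene. They number 55 of the 22180 genes measured: 43 microRNA genes, 6 small nucleolar RNA (snoRNA) genes, 4 long non-coding RNAs (Meg3, Rian, 3110009F21Rik and Dio3os) and 2 protein-coding genes (Dlk1 and Dio3). Members were chosen by position, and where a gene had several probe sets the one with the highest mean value over all arrays was taken. The cluster as a whole was selected on values of these same arrays, with their differences between groups known. Its counts and medians in all 3 comparisons are therefore descriptions, and p-values of single members come from a fit over all 22180 genes. RefSeq lists 103 genes in the interval. Of these, 18 had only probe sets shared with other genes, Rtl1 and Mirg among them, and 30 were not analysed here.

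All mice were female BALB/c, 7 to 8 weeks of age, with no labelled mutation or transgene, and the labelled tissue was skin. The groups were 2 control arrays, 4 arrays labelled PUVA 3D (the 3-day group) and 4 arrays labelled PUVA 7D (the 7-day group). Per the labels, PUVA was given with 0.25 J/cm2 of UVA, 2 times a week for 2 weeks, and imiquimod, an inducer of psoriasis-like dermatitis, came 3 or 7 days later. Whether the skin put on the arrays had been given imiquimod is not stated, and neither is any treatment of the controls. Nothing states that each array stands for a separate animal, so p-values describe the spread between the arrays at hand, and that spread may be technical.

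In the Dlk1-Dio3 domain, the protein-coding genes Dlk1, Rtl1 and Dio3 are expressed from the paternal chromosome. The long non-coding RNAs Meg3, Rian and Mirg, and with them the microRNAs and box C/D snoRNAs, are expressed from the maternal chromosome, and the small RNAs are cut from long transcripts of which these RNAs are part. The choice of parental copy depends on a differentially methylated region between Dlk1 and Meg3. Box C/D snoRNAs commonly guide methylation of other RNAs, and microRNAs repress messenger RNAs. A probe set over a microRNA or snoRNA gene reads any labelled RNA that contains the stretch, so the mature small RNA and its long precursor cannot be told apart in these values.

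Values below are the authors' deposited values, read as log2. Array medians lay between 5.83 and 5.86, and the lower quartiles of the arrays between 4.17 and 4.23. Of the 55 members, 30 lay above the lower quartile of every array, 25 lay below it on at least 1 array, and 15 of these lay below it on all 10 arrays. The tissue label was set against skin markers: the 4 basal keratinocyte genes measured had a mean log2 value of 10.82 to 11.14 per array, and the 5 of differentiated keratinocytes 11.06 to 11.46. Skeletal muscle genes also had means of 11.58 to 12.03. Control replicate 2 stood apart in the hair matrix and inner root sheath list, with a mean of 9.99 against 7.46 in control replicate 1 and 5.76 to 6.22 on the 8 PUVA arrays. In whole skin, fewer cells of a type and less RNA per cell cannot be told apart.

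The first comparison asks how the cluster differed between the 3-day group and control skin. Of the 55 members, 52 had a higher mean in the 3-day group, and the median log2 difference was 0.47, a fold of 1.38, against 0.002 over all genes. At an unadjusted p of 0.05, 30 members were higher and 0 lower, 54.5% of the members, where 5.67% of all genes were higher and 4.07% lower. In 28 members, or 50.9%, all 4 arrays of the 3-day group lay above both controls, and in 0 below both, where 9.52% and 7.89% of all genes did so. After Benjamini-Hochberg adjustment over all genes, 0 members passed in limma (background 0% of genes higher and 0.00451% lower), and the smallest adjusted p was 0.0624, for Mir377. The differences were not spread evenly along the domain: log2 differences exceeded 1 in Rian, in 5 of the snoRNAs that follow it in order and in the microRNAs Mir493, Mir323, Mir453 and Mir377. Those of Meg3 (on the probe set that names it alone), Mir409, 3110009F21Rik, Dio3os and Dio3 lay between -0.27 and 0.11. The 2 probe sets that list Meg3 beside microRNA genes, not counted as members, differed by 0.91 and 1.15.

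**Figure D1:**
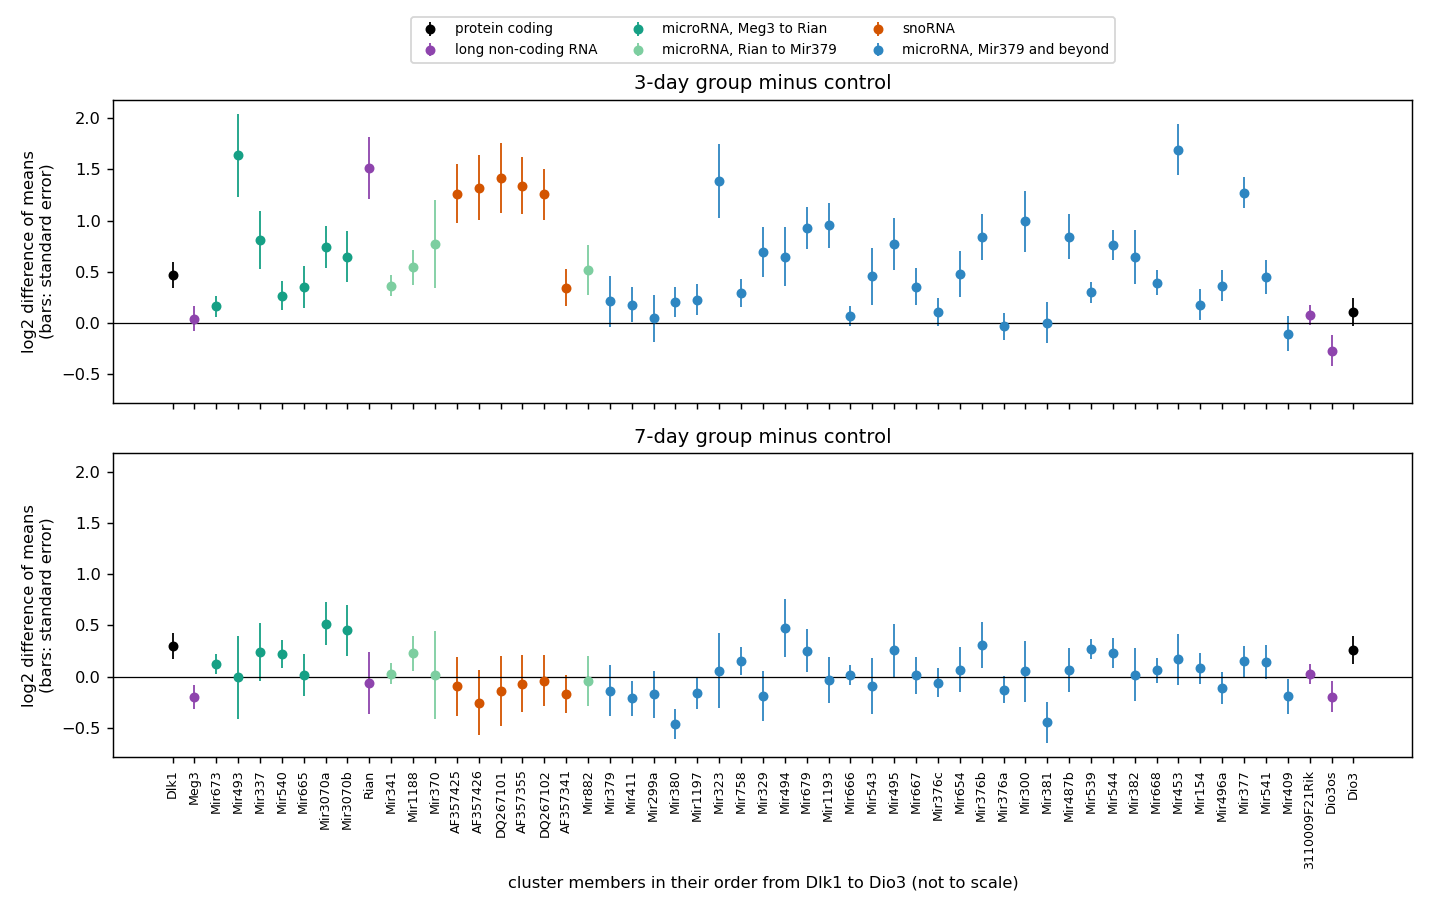
Log2 difference of group means (points) with the standard error of the limma fit (bars) for each of the 55 members, placed in their order from Dlk1 to Dio3 and coloured by RNA class; the upper panel is the 3-day group minus control and the lower the 7-day group minus control. In the upper panel 52 members lie above 0, and Mir453, Mir493 and Rian lie highest; in the lower panel 31 lie above 0 and 24 below.

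Dlk1 encodes a transmembrane protein of the Notch ligand type that holds preadipocytes undifferentiated. Its log2 values were 5.19 and 5.08 in the controls, 5.53, 5.47, 5.78 and 5.62 in the 3-day group and 5.27, 5.61, 5.61 and 5.26 in the 7-day group. All 8 PUVA arrays lay above both controls, by a log2 difference of 0.47 ± 0.13 (SE) in the 3-day group and 0.30 ± 0.13 in the 7-day group, with adjusted p of 0.319 and 0.831 in limma. Dio3 encodes the deiodinase that inactivates thyroid hormone. Its values lay below the lower quartile on all 10 arrays, at 3.20 and 3.31 in the controls, 3.22 to 3.55 in the 3-day group and 3.25 to 3.76 in the 7-day group, and the groups overlapped. The log2 difference of Dio3 was 0.11 ± 0.14 in the 3-day group and 0.26 ± 0.14 in the 7-day group against control.

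Meg3, the long non-coding RNA that begins the maternally expressed stretch, had log2 values of 5.53 and 5.33 in the controls, 5.57, 5.57, 5.31 and 5.44 in the 3-day group and 5.33, 5.12, 5.07 and 5.40 in the 7-day group on the probe set that names it alone. These ranges overlapped, and the log2 difference between the 3-day group and control was 0.04 ± 0.12. Against the 3-day group, the 7-day group differed by -0.24 ± 0.10 (unadjusted p 0.0319, adjusted p 0.480, limma). Larger differences stood on the 2 probe sets that list Meg3 beside microRNA genes, which are assigned here to no gene. In a fit over all probe sets they were 0.91 and 1.15 between the 3-day group and control. Between the 7-day and the 3-day group they were -1.26 and -1.13.

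Rian, the long non-coding RNA in whose introns many of the cluster's snoRNAs lie, had log2 values of 6.69 and 7.53 in the controls, 8.46, 9.13, 8.17 and 8.74 in the 3-day group and 7.32, 6.58, 6.97 and 7.32 in the 7-day group. Each 3-day array lay above each of the other 6 arrays, and the 7-day values lay in and below the range of the controls. The log2 difference between the 3-day group and control was 1.51 ± 0.30, a fold of 2.85, the 6th highest of the 22180 genes (adjusted p 0.181, limma). Between the 7-day and the 3-day group it was -1.58 ± 0.25 (adjusted p 0.128). The controls themselves differed by 0.84 in Rian.

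Dio3os, transcribed from the strand opposite Dio3, had mean log2 values of 5.05 ± 0.18 (SD, n = 2) in the controls, 4.78 ± 0.18 (SD, n = 4) in the 3-day group and 4.86 ± 0.21 (SD, n = 4) in the 7-day group. It had the lowest log2 difference of the members between the 3-day group and control, -0.27 ± 0.15, and -0.14 without control replicate 2. The remaining long RNA, 3110009F21Rik, which lies next to it in order, had a log2 difference of 0.08 ± 0.10. Neither passed a p of 0.05 in that comparison.

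**Figure D2:**
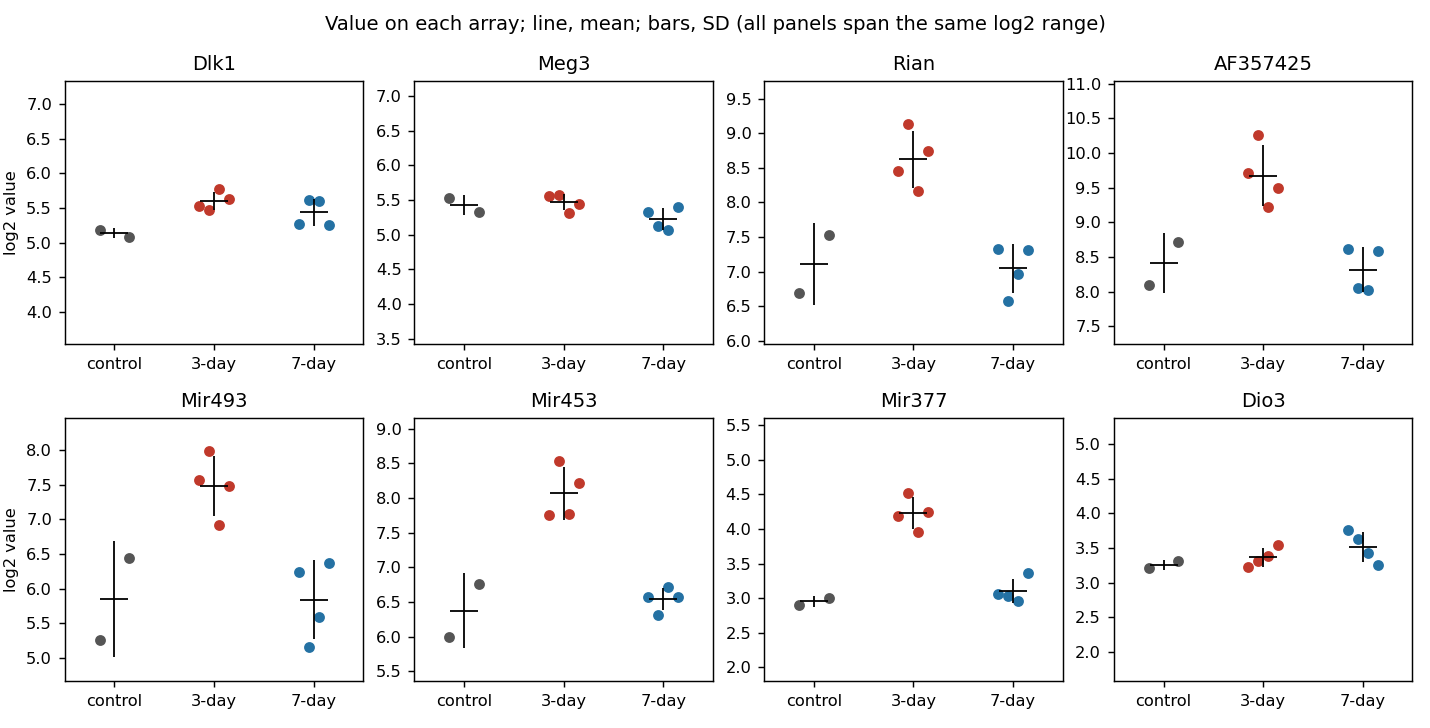
Log2 value on each array (points) with the group mean (line) and SD (bars) for 8 members in the control (n = 2), 3-day (n = 4) and 7-day (n = 4) groups; every panel spans the same log2 range. In Rian, AF357425, Mir493, Mir453 and Mir377 the 4 arrays of the 3-day group lie above the other 6. In Meg3 (the probe set that names it alone) and Dio3 the groups overlap.

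The 6 snoRNA members lie in one run after Rian. Their median log2 difference between the 3-day group and control was 1.29. All 6 lay above both controls on every 3-day array, as 9.52% of all genes did. Of the 6, 5 were higher at an unadjusted p of 0.05, beside 5.67% of all genes. AF357425 had log2 values of 8.10 and 8.72 in the controls, 9.71, 10.26, 9.23 and 9.49 in the 3-day group and 8.61, 8.05, 8.02 and 8.58 in the 7-day group. The 3-day arrays of AF357425 did not overlap the other arrays, with a log2 difference from control of 1.26 ± 0.29 (adjusted p 0.231, limma). The log2 differences of AF357426, DQ267101, AF357355 and DQ267102 were 1.32, 1.42, 1.34 and 1.26. AF357341, the snoRNA with the smallest difference, 0.35 ± 0.18, lay below the lower quartile on all 10 arrays. For comparison, the 47 measured Snord genes outside the domain had a median log2 difference of -0.14 in the same arrays. Of these, 44 had a lower mean in the 3-day group than in control. At an unadjusted p of 0.05, 1 was higher and 5 lower, beside 5.67% and 4.07% of all genes. In 2 of the 47 all 3-day arrays lay above both controls, and in 15 below both. Of all genes, 9.52% and 7.89% did so.

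Of the 43 microRNA members, 41 had a higher mean in the 3-day group than in control, with a median log2 difference of 0.45. At an unadjusted p of 0.05, beside 5.67% and 4.07% of all genes, 23 of the 43 were higher and 0 lower. The 7 that lie between Meg3 and Rian had a median of 0.65 (4 higher at that p), the 4 between Rian and Mir379 had 0.53 (2 higher), and the 32 from Mir379 onward had 0.42 (17 higher). The 440 microRNA genes outside the domain had a median of -0.02, with 13 higher and 46 lower.

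Between Meg3 and Rian, Mir493 had log2 values of 5.25 and 6.44 in the controls, 7.56, 7.98, 6.92 and 7.48 in the 3-day group and 6.25, 5.15, 5.59 and 6.36 in the 7-day group. Every 3-day array was above every other array, although the controls differed by 1.19. The log2 difference between the 3-day group and control was 1.64 ± 0.41, the 2nd highest of the 22180 genes, with an adjusted p of 0.280 in limma. Mir673, also in this stretch, differed by 0.16. Mir493 was thus the highest of 7 microRNAs whose differences from control ran from 0.16 to 1.64.

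Mir453, in the large microRNA run that starts at Mir379, had log2 values of 5.99 and 6.76 in the controls, 7.75, 8.53, 7.77 and 8.22 in the 3-day group and 6.57, 6.32, 6.71 and 6.58 in the 7-day group. The 3-day arrays did not overlap the other arrays. With a log2 difference of 1.69 ± 0.25, a fold of 3.23, Mir453 had the highest difference of all 22180 genes in this comparison, and its adjusted p was 0.0860 in limma. Mir377 had 2.90 and 3.01 in the controls, 4.19, 4.51, 3.95 and 4.24 in the 3-day group and 3.06, 3.03, 2.96 and 3.36 in the 7-day group. The 3-day arrays stood clear of the others here too, but Mir377 lay below the lower quartile on 8 of 10 arrays. Its log2 difference from control was 1.27 ± 0.15 in the 3-day group. Mir544, below the lower quartile on all 10 arrays, had a log2 difference of 0.76 ± 0.15 (adjusted p 0.160).

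Some microRNAs of this run had a difference near 0 or a lower mean. Mir409, near its end, had a log2 difference of -0.11 ± 0.17 between the 3-day group and control, and Mir376a had -0.03 ± 0.13. Mir381 had 0.003 ± 0.20. Their groups overlapped. Of the 20 genes with the highest log2 differences in this comparison among all 22180, 10 were members of the cluster. The cluster makes up 55 of the 22180 genes and was selected with these differences known, so the count is a description.

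**Figure D3:**
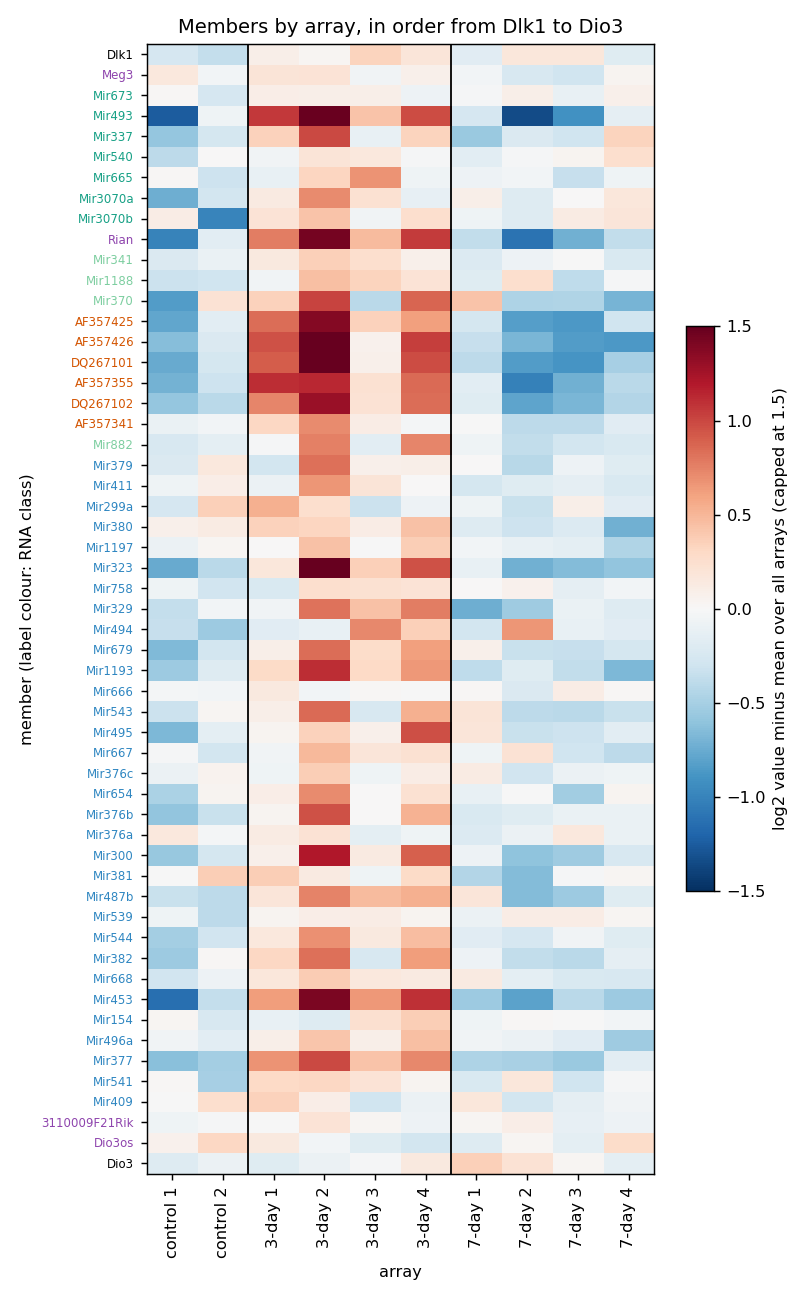
Log2 value minus the mean over all 10 arrays for each member (rows, in order from Dlk1 to Dio3, labels coloured by RNA class) on each array (columns), with the colour scale capped at 1.5. The 3-day columns are mostly above 0, and 3-day replicate 2 is the highest of its group in 40 of 55 members.

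The second comparison asks whether the 7-day group differed from control. Of the 55 members, 31 had a higher and 24 a lower mean, with a median log2 difference of 0.02, and the median of all genes was also 0.02. At an unadjusted p of 0.05, 3 were higher (Mir539, Mir3070a and Dlk1) and 2 lower (Mir380 and Mir381), beside 3.21% and 2.68% of all genes. After adjustment 0 members passed in limma (background 0%), and the smallest adjusted p was 0.763, for Mir380. All 7-day arrays lay above both controls in 5 members and below both in 2, where 8.56% and 5.85% of all genes did so.

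Mir3070a had log2 values of 4.23 and 4.69 in the controls and 5.05, 4.77, 4.97 and 5.13 in the 7-day group, with a difference of 0.52 ± 0.21. Mir380 had 3.45 and 3.50 in the controls and 3.18, 3.06, 3.17 and 2.65 in the 7-day group, with a difference of -0.46 ± 0.15. The mean of its 2 probe sets gave -0.22. The 7-day arrays did not overlap the controls in either of these microRNAs. Mir539 differed by 0.27 ± 0.10 and Mir381 by -0.45 ± 0.20, with overlap in both. Without control replicate 1 the differences of Mir3070a, Mir539 and Mir381 were 0.29, 0.44 and -0.63, and without control replicate 2 they were 0.75, 0.10 and -0.26. The 6 snoRNAs all had a lower mean in the 7-day group than in control, by at most 0.26, and 0 of them had an unadjusted p under 0.05. Averaged over the 6, the controls stood at 5.69 and 6.05 and the 7-day arrays at 5.53 to 6.06. Against control replicate 1 alone the direction was not shared. AF357425 had 8.10 there and a 7-day mean of 8.31, and AF357426 had 4.79 and 4.74.

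The third comparison, between the PUVA groups, does not rest on the 2 controls except through the shared spread of the fit, but it shares the 3-day arrays with the first. Of the 55 members, 53 had a lower mean in the 7-day than in the 3-day group, with a median log2 difference of -0.41 against 0.01 over all genes. At an unadjusted p of 0.05, 35 were lower and 0 higher, beside 4.43% and 5.33% of all genes. In 21 members all 4 arrays of the 7-day group lay below all 4 of the 3-day group, and in 0 above, where 2.28% and 2.95% of all genes did so. After adjustment over all genes 1 member was called in limma, Mir377, where 0.00451% of genes were called lower.

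Mir377 fell by 1.12 on the log2 scale from the 3-day to the 7-day group (SE 0.12, adjusted p 0.0303). Its fall kept its direction under all 17 other settings in which it was fitted (the filter on low values removed it), and its call held under 9 of them, with adjusted p from 0.0160 to 0.186. The call was lost with only the groups compared, and without control replicate 1 or 2 (adjusted p 0.0559 in each of the 3). It was also lost without 3-day replicate 4 (0.0824), without 7-day replicate 1 (0.147), 2 (0.186) or 3 (0.129), and with all probe sets fitted together (0.0501). Mir453 had a log2 difference of -1.52 ± 0.20 (adjusted p 0.0856), Mir493 had -1.65 ± 0.33 (0.209), and neither was called.

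By class, all 6 snoRNAs had a lower mean in the 7-day than in the 3-day group, with a median log2 difference of -1.38. All 6 were lower at an unadjusted p of 0.05, beside 4.43% of all genes. All 43 microRNAs had a lower mean, 27 of them at that p, with a median of -0.39. The microRNA genes outside the domain had a median of 0.05, with 64 of 440 higher and 14 lower. The Snord genes outside it had a median of 0.12, with 9 of 47 higher and 1 lower. Of all genes, 5.33% were higher and 4.43% lower at that p. Dio3 and Dio3os were the 2 members with a higher mean in the 7-day group, by 0.15 ± 0.11 and 0.08 ± 0.12. Dlk1 differed by -0.17 ± 0.11 between the PUVA groups, and neither it nor Dio3 had an unadjusted p under 0.05.

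**Figure D4:**
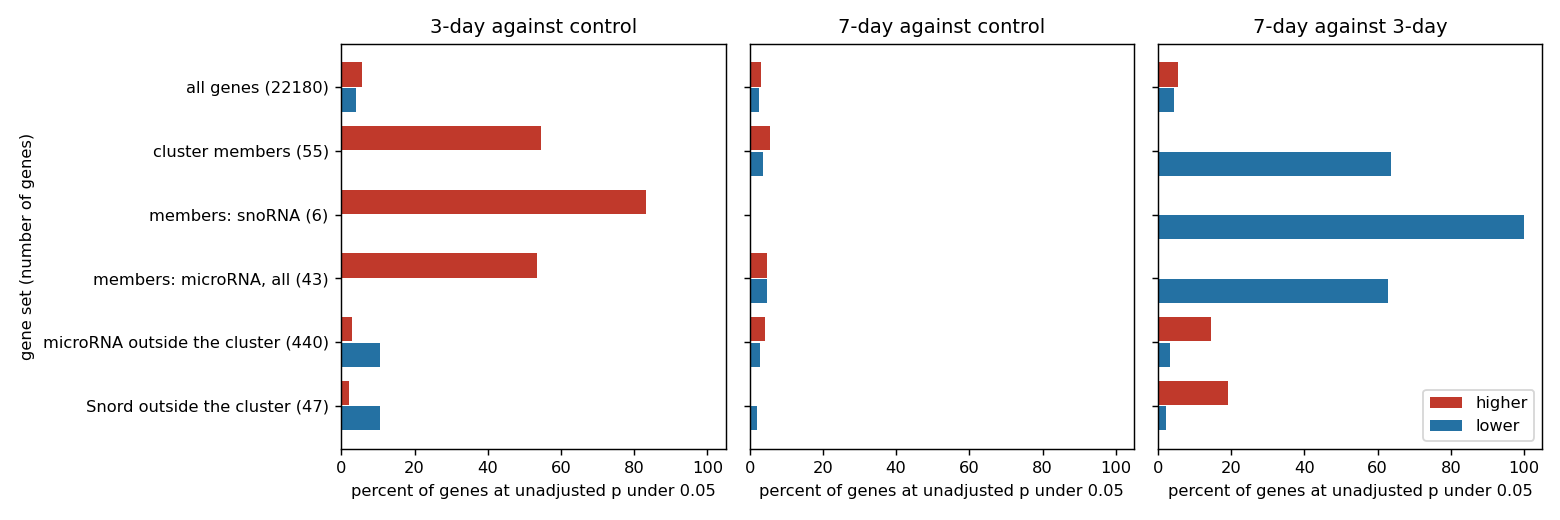
Percent of genes at an unadjusted p under 0.05 in limma, higher (red) and lower (blue), for all genes, the cluster members, their snoRNAs and microRNAs, and the microRNA and Snord genes outside the domain, in the 3 comparisons; the number of genes stands beside each label. In the 3-day group against control 54.5% of the members are higher and 0% lower, where 5.67% and 4.07% of all genes are.

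Set against all other arrays, 17 of the 55 members had every 3-day array above all 6 control and 7-day arrays, and 0 had every one below, beside 1.22% and 1.31% of all genes. These 17 were Rian, 5 of the 6 snoRNAs, 1 microRNA between Meg3 and Rian, 1 between Rian and Mir379 and 9 from Mir379 onward. The differences by level of signal were as follows, where 5.67% of all genes were higher in the 3-day group than in control at an unadjusted p of 0.05. The 30 members above the lower quartile of every array had a median log2 difference of 0.51 between the 3-day group and control (19 higher at an unadjusted p of 0.05), the 25 below it on at least 1 array had 0.45 (11 higher), and the 15 of these below it on all 10 arrays had 0.21 (3 higher). Between the 7-day and the 3-day group the medians were -0.34, -0.51 and -0.39, so the order of the sets was not the same in both comparisons.

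**Figure D5:**
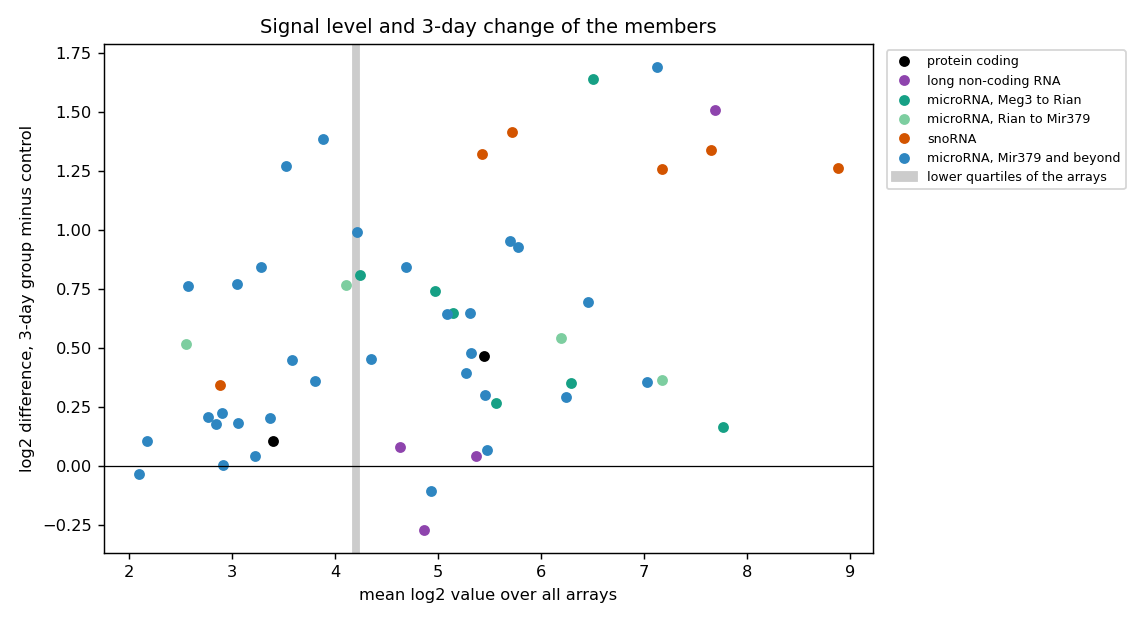
Log2 difference between the 3-day group and control (vertical axis) against the mean log2 value over all 10 arrays (horizontal axis) for the 55 members, coloured by RNA class; the grey band is the range of the arrays' lower quartiles, 4.17 to 4.23. Members left of the band are near the dim end of the arrays, Mir377 and Mir323 among them, and Rian, Mir453 and 5 snoRNAs lie right of it.

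The 12 probe sets that list a gene of the domain together with other genes were left out of the members, and their values are assigned to no gene. In a fit over all 41345 probe sets, all 12 had a higher mean in the 3-day group than in control, with a median log2 difference of 0.54 and a range of 0.07 to 1.54. Of these 8 had an unadjusted p under 0.05, beside 4.35% of all probe sets, and 0 passed adjustment (lowest adjusted p 0.215, limma; background 0% higher and 0.00242% lower). In 10 of the 12 all 3-day arrays lay above both controls, as in 8.57% of all probe sets. In 6 of the 12, all 3-day arrays lay above all 6 others, as in 1.07% of all probe sets. The 2 of them that list Meg3 beside microRNA genes differed by 0.91 and 1.15, unlike the probe set that names Meg3 alone. The 3 that list Mirg differed by 0.52 to 1.54, and the 6 that list Rtl1, which overlaps microRNA genes on the other strand, by 0.07 to 0.56. In the 7-day group against control, 1 of the 12 was higher at an unadjusted p of 0.05, beside 2.82% of all probe sets, and the median was 0.09. Against the 3-day group, the 12 were all lower in mean in the 7-day group, with a median of -0.31 (6 at an unadjusted p of 0.05, beside 3.95% of all probe sets).

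Arrays of a group also differed over the members, and the counts below were not made over all genes. Whether they are particular to the cluster was not tested. Among the 3-day arrays, replicate 2 had the highest value in 40 of 55 members and replicate 3 the lowest in 25. Control replicate 2 was above control replicate 1 in 40 of 55, by a median of 0.20. Against control replicate 1 alone the members' median log2 difference in the 3-day group was 0.49, and against control replicate 2 alone 0.47. In the 7-day group these medians were 0.09 and -0.09.

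Likeness to Rian was measured within groups, as Pearson's r of the deviations from the group means over the 10 arrays. It is a description, since the arrays share groups and normalization, and no r of the values themselves is given, because the 3-day arrays of Rian lie apart from the rest. The median r over the other 54 members was 0.58, and 43 were above 0. The same r was not computed for genes outside the cluster. All 6 snoRNAs were above 0, with a median of 0.84. Mir493 had the highest r, 0.95, followed by AF357425 at 0.89. Dlk1 had the lowest of all members, -0.78. Meg3 had 0.37 and Dio3 0.01.

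Relations between Dlk1, Meg3 and Dio3 were computed for 3 pairs over 10 arrays, with 100000 permutations, two-sided. The planned pair of Meg3 and Rian was left out, so the adjustment covers these 3 pairs only. Dlk1 and Meg3 had r = -0.28 (p 0.440, adjusted 0.506) and rho = -0.33 (p 0.349, adjusted 0.349), and r = -0.26 without the 2 arrays farthest from the median of Dlk1. On deviations from the group means, given as a description without a test, r for this pair was -0.83. Dlk1 and Dio3 had r = 0.24 (p 0.506, adjusted 0.506) and rho = 0.52 (p 0.135, adjusted 0.202), and r = -0.07 without 2 arrays, so the sign rested on those, and 0.15 on deviations from the group means. Meg3 and Dio3 had r = -0.53 (p 0.126, adjusted 0.379) and rho = -0.60 (p 0.0748, adjusted 0.202), r = -0.52 without 2 arrays, and -0.33 on deviations from the group means. None of the 3 passed a p of 0.05 in the permutation test of the values.

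Protein-coding genes just outside the domain were measured on both sides. The nearest 10 beyond Dlk1 had a median log2 difference of 0.06 between the 3-day group and control. At an unadjusted p of 0.05, beside 5.67% and 4.07% of all genes, 0 of these 10 were higher and 2 lower. The nearest of them, Begain, differed by -0.39 ± 0.10 (adjusted p 0.303, limma). The nearest 10 beyond Dio3 had a median of -0.001, with 1 higher and 0 lower, and the nearest of them, Ppp2r5c, a phosphatase regulatory subunit, differed by 0.006 ± 0.07.

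Genes of processes tied to the domain were counted from lists, again between the 3-day group and control at an unadjusted p of 0.05, and 0 of them were higher. Of 14 imprint control genes, which set or keep DNA methylation at imprinted loci, 1 was lower: Uhrf1, the partner of the maintenance methyltransferase, by -0.54 ± 0.23. Of 13 genes that process or load microRNAs, 0 were lower, and of 7 genes of box C/D snoRNA particles, 0 were lower. Of 7 genes of the Polycomb repressive complex and its partners, to which Meg3 is known to bind, 2 were lower: Ezh2, by -0.25 ± 0.09, and Rbbp4, by -0.24 ± 0.09. Of 18 Notch pathway genes 3 were lower: Nrarp, Dlk2 and Dll1, by -0.36 ± 0.08, -0.38 ± 0.14 and -0.25 ± 0.10. Of 10 thyroid hormone genes 1 was lower: Thrsp, by -0.67 ± 0.25. None of these passed adjustment in limma, and 4.07% of all genes were lower at this p. The controls differed in some lists. The imprint control list had array means of 7.93 and 8.19 in the controls and 7.95 to 8.04 in the 3-day group. The Notch list had 7.77 and 7.93 in the controls and 7.73 to 7.78 in the 3-day group.

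In the 7-day group against control, 1 of the imprint control genes was lower (Uhrf1, -0.84 ± 0.23), and 0 genes of the other 5 lists were higher or lower at that p. Between the PUVA groups, 3 thyroid hormone genes were higher in the 7-day group, Dio2, the deiodinase that activates thyroid hormone, among them (0.44 ± 0.15). Of the Notch genes 2 were higher, with the feedback target Nrarp at 0.31 ± 0.07, and 2 imprint control genes were lower. None of these passed adjustment in limma. At that p, 3.21% of all genes were higher and 2.68% lower in the 7-day group against control. Between the PUVA groups 5.33% were higher and 4.43% lower in the 7-day group.

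Cell type markers moved with the cluster in part. Of 8 fibroblast genes 4 were higher in the 3-day group than in control at an unadjusted p of 0.05, beside 5.67% of all genes. All 8 had a higher mean in the 3-day group, with a median log2 difference of 0.24. The differences were uneven, at 1.07, 0.77 and 0.69 in the collagen genes Col1a1, Col3a1 and Col1a2. Pdgfra, Dcn, Lum, Dpt and Thy1 differed by 0.23, 0.08, 0.23, 0.26 and 0.11. The mean of the 8 per array was 10.86 and 11.33 in the controls, 11.25 to 11.80 in the 3-day group and 10.82 to 11.27 in the 7-day group. It was highest on 3-day replicate 2, as the cluster was, and higher in control replicate 2 than in control replicate 1, as the cluster was. In the 3-day group it was lowest on replicate 1 (11.25), where members were most often lowest on replicate 3. In the 7-day group it was highest on replicate 4 (11.27), where members were most often highest on replicate 1 (24 of 55). All 5 macrophage genes were also higher in mean, 4 at that p, with array means of 9.32 and 9.51 in the controls, 9.62 to 10.42 in the 3-day group and 9.41 to 9.87 in the 7-day group. This list too was highest on 3-day replicate 2, lowest in its group on 3-day replicate 3 and higher in control replicate 2 than in control replicate 1. In the 7-day group it was highest on replicate 4 (9.87), unlike most members of the cluster. All 5 endothelial genes had every 3-day array above both controls, as 9.52% of all genes did, and 2 of the 5 were higher at that p. Array means of this list were 8.59 and 8.50 in the controls, 8.75 to 8.89 in the 3-day group and 8.69 to 8.78 in the 7-day group. The endothelial list was highest on 3-day replicate 1 and lower in control replicate 2 than in control replicate 1, unlike most members of the cluster. The 5 dermal papilla genes had array means of 6.73 and 7.49 in control replicates 1 and 2. In the 3-day group they were highest on replicate 2 (7.04), but 4 of the 5 had a lower mean there than in control.

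Of the 6 hair matrix and inner root sheath genes, 5 were lower than control in each PUVA group at an unadjusted p of 0.05. Of all genes, 4.07% were lower at that p in the 3-day group and 2.68% in the 7-day group. Krt71 and Krt27 lay below the lower quartile on at least 1 array. So did Tyr of the melanocyte list, and all other genes of the marker lists lay above it on every array. The 5 melanocyte genes had array means of 6.28 and 7.87 in control replicates 1 and 2, 5.86 to 6.85 in the 3-day group and 5.90 to 6.09 in the 7-day group, so control replicate 2 stood apart here too and control replicate 1 lay within the 3-day range. At that p 1 of the 5 had a lower mean than control in the 3-day group, and 4 of the 5 had one in the 7-day group. Skeletal muscle is a tissue in which the domain is known to be active in stem cells. Its markers had a median of -0.08 in the 3-day group. At that p 0 of 8 were higher and 1 lower (Myh1, a fast myosin heavy chain, by -0.41 ± 0.13). Of 4 satellite cell genes 2 were higher, beside 5.67% of all genes, and 0 lower. The 2 were Chrna1 (0.31 ± 0.11) and Myf5 (0.36 ± 0.15). The other 2 had a lower mean than control, Pax7 among them (-0.12 ± 0.14). Adipocyte genes had a median of -0.05, with 0 of 6 higher or lower. The part of these cell types in the values of the cluster was not tested.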

How the data were processed

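RNA of 10 skin samples was purified by miRNeasy kit, treated with DNase and measured on Affymetrix gene arrays (WT PLUS labelling), per the labels' protocols. The authors deposited a table of values per probe set, taken here to be log2 because of their range. How the authors normalized them is not given in the sources used here. Precision is limited by the number of arrays.

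Of 41345 probe sets, 23521 had 1 symbol in the platform annotation, 1814 several and 16010 none. The probe set with the highest mean was taken for each gene, with no filter on low values: all 55 members were tested, and 29 passed the filter on the lowest 30% of genes used as an alternative. Members were matched to RefSeq (GRCm38.p6) by Entrez identifier (54) or symbol (1), and 5 had several probe sets. No sequences or coordinates are shown, and the promoter and seed comparisons that were planned were not run.

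The model had 3 group means over the 10 arrays and 7 residual degrees of freedom and was run in limma 3.58.1 under R 4.3.3 (functions lmFit, eBayes; tests two-sided) and Benjamini-Hochberg adjustment over all genes and a threshold of 0.05. Errors after ± are standard errors of this fit, unless SD is written. The fit takes 1 spread for all groups, so where the controls lie far apart the errors against control are too small. Members, lists, the set of 136 matched list symbols of 145 and the tests were chosen with earlier results of these data known. Genes were named by rule: Dlk1, Dio3, Meg3 and Rian, and up to 3 members per direction and comparison with the smallest p. Mir493, Mir673, Mir323, 3110009F21Rik and the snoRNAs were named after their values were seen, as were Tyr, Krt71 and Krt27, for low signal. The fibroblast genes were also named after their values were seen. From the lists, at most 3 genes with the smallest p were otherwise named, and from the neighbours the nearest on each side. Scripts were tested on simulated data. Alternatives were the filter, the mean of probe sets, quantile normalization, centring, trend with robust settings, array weights, only the groups compared, leaving out each array, and, chosen after seeing the data, the shared probe sets added.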

Additional observations from a re-analysis of the deposited data

Results flagged for a closer look

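Mir377 differed between the PUVA groups in the fit over all 10 arrays. The log2 difference between the 7-day and the 3-day group was -1.12, with an adjusted p of 0.0303 in limma. With only the PUVA groups in the fit, the log2 difference was the same, but the adjusted p was 0.0559 in limma and the call was lost. The call held under 9 of the 17 other settings in which Mir377 was fitted. All 4 arrays of the 7-day group lay below all 4 of the 3-day group. Values of Mir377 on 8 of 10 arrays were below the lower quartile of the array. The named members were also checked for a single array far from the rest of its group of 4, in 28 checks by Dixon's ratio, and 0 were found.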

How the results depend on the processing

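With the filter on the lowest 30% of genes, which left 29 members, the members' median in the 3-day group against control was 0.64, 0 were lower in the 7-day group against control and 18 were lower in the 7-day than in the 3-day group at an unadjusted p of 0.05, and 0 were called between the PUVA groups. The members lower in the 7-day group against control numbered 1 with the mean of probe sets, with trend and robust settings, with array weights and with the shared probe sets added. Members called in the 3-day group against control numbered 1 after centring and 1 with array weights, and between the PUVA groups 2 after centring, 2 with array weights, 0 with only the groups compared and 0 with the shared probe sets added; the cause was not tested. Shares of all genes under these settings are not given here. Whether the counts changed with those of all genes therefore cannot be told. The relation of Dlk1 and Dio3 turned to r = -0.0657 without 2 arrays. In the 3-day group against control, Mir409 turned to 0.063 with the mean of probe sets and Mir381 to -0.025 after quantile normalization. Between the PUVA groups, Mir380 differed by -0.31 with the mean of its probe sets, against -0.67.

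Leaving out each array in turn, the members called numbered 0 to 2 in the 3-day and 0 to 1 in the 7-day group against control, and 0 to 5 between the PUVA groups (5 without 3-day replicate 3). At an unadjusted p of 0.05, 23 to 34 were higher and 0 to 1 lower in the 3-day group, 1 to 3 higher and 0 to 2 lower in the 7-day group, and 0 to 1 higher and 26 to 35 lower between the PUVA groups. Signs turned for Mir376a (-0.13 to 0.063), Mir381 (-0.18 to 0.19), Meg3 (-0.056 to 0.14) and Mir409 (-0.23 to 0.022) in the 3-day group, for Mir453 (-0.22 to 0.55) and Rian (-0.49 to 0.35) in the 7-day group, and between the PUVA groups for Mir409 (-0.19 to 0.023), Mir539 (-0.054 to 0.015) and Dio3os (-0.019 to 0.15). A fit with 1 control takes its spread from the PUVA groups. Here too no shares of all genes are given, so whether changes in the counts are particular to the cluster cannot be told. No paired analysis was possible because replicate numbers were given in sample order and so link no arrays across groups.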
